A study of Brassica rapa with 12 samples.

Results

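The 8 genes described here are the Brassica rapa copies of 3 flowering genes, and they were picked by identifier from the 41020 genes of the deposited count table. FT is represented by 2 copies (Bra022475 and Bra004117), SOC1 by 3 (Bra004928, Bra000393 and Bra039324) and FUL by 3 (Bra012997, Bra029347 and Bra035952). The family of each identifier was taken as given, because the gene table used here paired none of the 8 with a name. The coding lengths behind the deposited values were alike within each family: 528 bases for both FT copies, 642 bases for all SOC1 copies, and 726, 723 and 726 bases for the FUL copies in the order above. Messenger RNA came from stems and buds of 8-week-old plants that were either transgenic, from lines silenced for the chromatin remodelling ATPase BrCHR39, or wild type. The libraries form 4 groups of 3, namely silenced bud, wild type bud, silenced stem and wild type stem. How silencing was done, how many lines were used and whether plants were pooled is not given in the labels, and BrCHR39 itself was not analysed here.

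In Arabidopsis, FT encodes a small mobile protein that is made in leaf veins and travels to the shoot tip, where it acts with the transcription factor FD to start flowering. SOC1, a MADS-box transcription factor, is a target of this signal and is held down by the repressor FLC, so that both genes are called floral integrators. FUL, another MADS-box factor, is switched on in the shoot tip as flowering begins and also shapes leaves and fruits. Brassica rapa carries several copies of many genes that Arabidopsis holds once, and each copy was therefore followed separately.

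The libraries held 12275190 to 15693349 reads assigned to genes, and all 8 copies carried enough reads to be tested among 28114 genes. Levels of a copy across libraries are given as CPM, read counts scaled to library size with TMM factors. Levels of different copies are compared as deposited FPKM, which divides counts by coding length and library total and holds no TMM factor, so sums of FPKM and fitted fold changes rest on different scalings. The labels do not say whether replicate libraries stem from different plants. All p-values therefore refer to the spread among replicate libraries, and that spread may be technical. Near-identical copies could share reads, and the labels do not say how the authors' counting treated such reads. In bulk tissue, fewer cells that express a gene and less of its RNA per cell cannot be told apart.

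Each FT copy was found in buds and in stems, but the copies differed in the tissue where they were higher. Bra022475 was mainly a stem transcript, whereas Bra004117 was higher in buds, and silencing widened the tissue difference of Bra004117. Bra022475 stood at 6.05, 6.43 and 6.26 CPM in silenced buds and at 1.74, 2.74 and 1.92 CPM in wild type buds. In stems it reached 34.3, 37.5 and 36.2 CPM in silenced plants, against 17.9, 16.8 and 15.6 CPM in wild type plants. None of these 4 groups overlapped another, and silenced plants were the higher ones in each tissue. The copy rose 2.90-fold in silenced buds (log2 fold change 1.53 ± 0.17 SE, adjusted p = 5.74e-16, edgeR's quasi-likelihood test) and 2.15-fold in silenced stems (1.102 ± 0.09, adjusted p = 7.82e-24, edgeR).

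Bra004117 moved in opposite directions in the tissues. It stood at 59.8, 64.6 and 61.5 CPM in silenced buds, against 27.4, 24.0 and 27.2 CPM in wild type buds. In silenced stems it was down to 8.38, 8.12 and 9.45 CPM, against 20.3, 20.6 and 21.9 CPM in wild type stems. Silenced buds were thus the highest group, silenced stems the lowest, and no group overlapped its neighbour. The copy rose 2.37-fold in silenced buds (log2 fold change 1.24 ± 0.06 SE, adjusted p = 6.21e-43, edgeR) and fell 2.42-fold in silenced stems (-1.27 ± 0.10, adjusted p = 1.31e-24, edgeR).

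**Figure D1:**
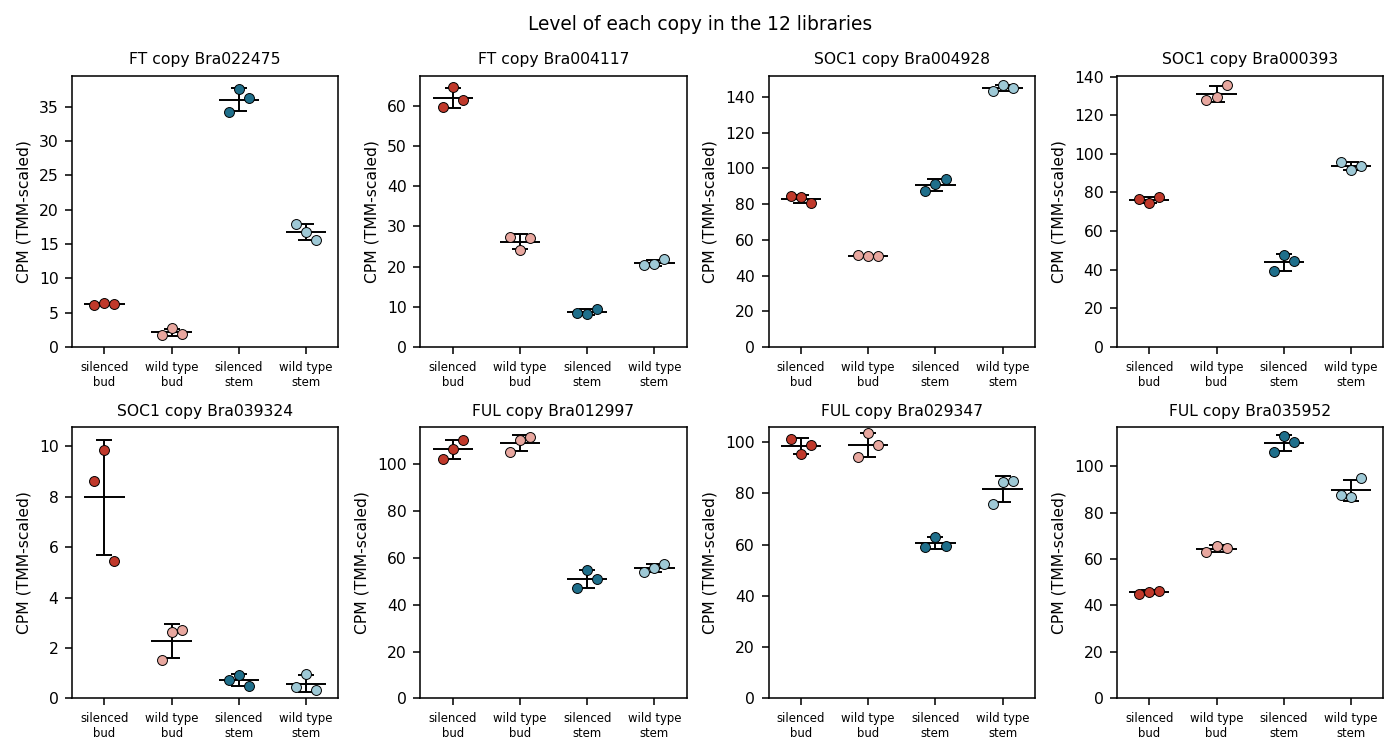
CPM of each copy (y axis, starting at 0, scaled separately per panel) in the 4 groups (x axis); points are libraries, the long bar is the mean and the error bars are 1 SD (n = 3). The FT copy Bra004117 is highest in silenced buds (59.8 to 64.6 CPM) and lowest in silenced stems (8.12 to 9.45 CPM), while the FT copy Bra022475 is highest in silenced stems (34.3 to 37.5 CPM).

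Which FT copy was the more abundant therefore depended on tissue and genotype. In silenced stems Bra022475 made up 80.4%, 82.2% and 79.3% of the FPKM summed over both copies, against 46.9%, 44.9% and 41.6% in wild type stems. The groups did not overlap. In wild type stems Bra004117 was the larger copy in every library, with 53.1%, 55.1% and 58.4%. In buds Bra004117 was the main copy in both genotypes, with 90.8% ± 0.0924 in silenced buds and 92.4% ± 2.29 in wild type buds (SD, n = 3), and these ranges overlapped. The summed FT level was 152 ± 5.76 FPKM in silenced buds, against 60.4 ± 3.00 FPKM in wild type buds, a ratio of 2.52. In stems the opposite moves of the copies left a sum of 73.1 ± 2.93 FPKM in silenced plants, against 62.3 ± 0.755 FPKM in wild type plants, a ratio of 1.17. Shares and sums are given as descriptions, since with 3 libraries a side the smallest two-sided p of an exact permutation test is 0.1.

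Among the SOC1 copies, Bra004928 and Bra000393 carried nearly all of the family's RNA. Both fell in silenced stems, but they went apart in silenced buds. Bra004928 stood at 84.5, 83.9 and 80.5 CPM in silenced buds and at 51.6, 50.8 and 51.2 CPM in wild type buds. Its stem levels were 87.3, 91.3 and 94.1 CPM in silenced plants and 144, 147 and 145 CPM in wild type plants. The wild type groups were thus the extremes, wild type stems highest and wild type buds lowest, and the silenced groups lay between them. The copy rose 1.62-fold in silenced buds (log2 fold change 0.70 ± 0.04 SE, adjusted p = 1.84e-33, edgeR) and fell 1.60-fold in silenced stems (-0.68 ± 0.04, adjusted p = 1.25e-35, edgeR).

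Bra000393 fell in both tissues. It stood at 76.5, 74.3 and 77.5 CPM in silenced buds, against 128, 129 and 135 CPM in wild type buds. In stems it reached 39.2, 47.8 and 44.7 CPM in silenced plants, against 95.9, 91.8 and 93.8 CPM in wild type plants. In CPM every silenced library was below every wild type library, whichever tissue it came from. That order across tissues depends on the scaling. In FPKM silenced buds, at 137 to 142, lay above wild type stems, at 125 to 130. Within each tissue the silenced libraries were the lower ones on either scale. The fall was 1.72-fold in buds (log2 fold change -0.78 ± 0.04 SE, adjusted p = 1.48e-42, edgeR) and 2.14-fold in stems (-1.09 ± 0.05, adjusted p = 6.41e-48, edgeR).

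The third SOC1 copy, Bra039324, was rare. Its reads numbered 140, 173 and 100 in the silenced bud libraries and 21, 44 and 48 in the wild type bud libraries, or 5.44 to 9.84 CPM and 1.52 to 2.71 CPM. Stem libraries held only 6 to 12 reads in silenced plants and 4 to 13 in wild type plants, so the copy passed the read filter through its bud libraries. It rose 3.40-fold in silenced buds (log2 fold change 1.77 ± 0.20 SE, adjusted p = 2.83e-15, edgeR), the largest fold among the 8 copies in either tissue. In stems a change was not detectable at this depth: the log2 fold change was 0.31, with a 95% interval of -0.60 to 1.23 (adjusted p = 0.567, edgeR), which leaves room for changes of more than 2-fold upwards.

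SOC1 thus changed its leading copy in buds. Bra000393 supplied 45.1%, 44.2% and 47.4% of the summed SOC1 FPKM in silenced buds, against 70.6%, 70.8% and 71.5% in wild type buds. Bra004928 supplied 49.8%, 49.9% and 49.3% in silenced buds, against 28.5%, 27.8% and 27.0% in wild type buds. In stems Bra004928 led in both genotypes, with 67.1% ± 1.73 in silenced plants and 60.6% ± 0.731 in wild type plants (SD, n = 3). Bra039324 took 4.76% ± 1.30 in silenced buds, 1.24% ± 0.342 in wild type buds and less than the other copies in every library. The summed SOC1 level was 307 ± 6.40 FPKM in silenced buds and 323 ± 8.35 FPKM in wild type buds, a ratio of 0.951, although each copy changed by more than 1.5-fold. Every silenced bud library still lay below every wild type bud library in this sum. The same held on TMM library sizes, with 255 to 264 CPM per kilobase in silenced buds against 282 to 295 in wild type buds. In stems, where both main copies fell, the sum was 182 ± 9.84 FPKM in silenced plants, against 326 ± 0.154 FPKM in wild type plants, a ratio of 0.560.

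**Figure D2:**
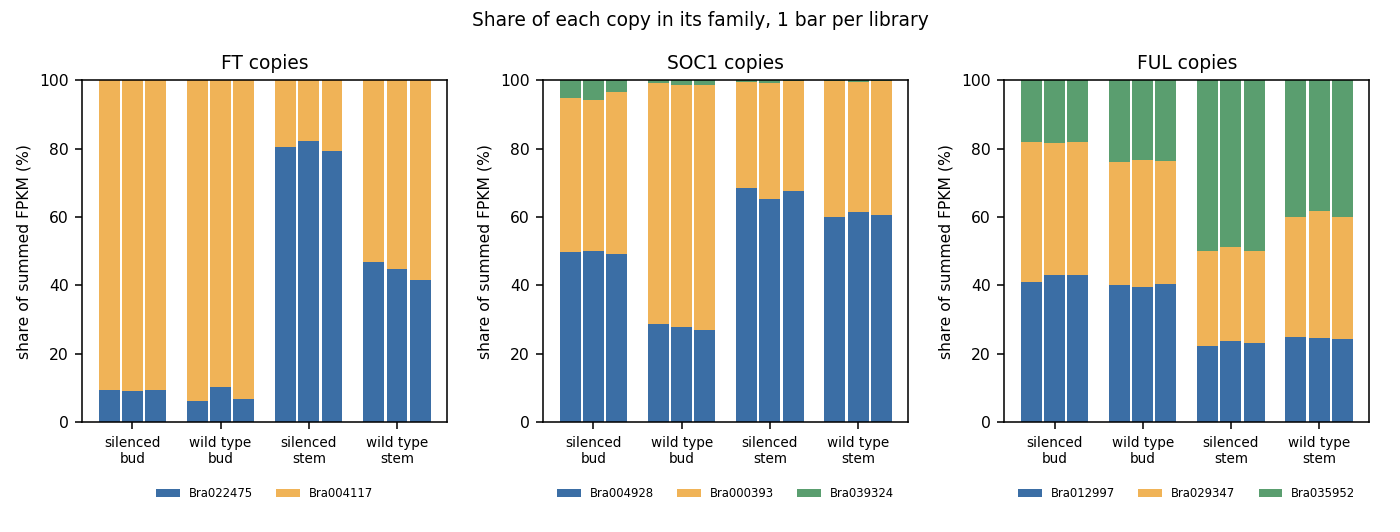
Share of each copy in the FPKM summed over its family (y axis, percent), 1 stacked bar per library, in the 4 groups (x axis), with a panel each for FT, SOC1 and FUL. Bra022475 takes 79.3% to 82.2% of FT in silenced stems, against 41.6% to 46.9% in wild type stems, and Bra000393 takes 44.2% to 47.4% of SOC1 in silenced buds, against 70.6% to 71.5% in wild type buds.

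The FUL copies moved less. Bra012997 and Bra029347 did not pass the test in buds and fell in silenced stems, whereas Bra035952 fell in silenced buds and rose in silenced stems. Bra012997 stood at 102, 106 and 110.4 CPM in silenced buds and at 105, 110.1 and 112 CPM in wild type buds. Its stem levels were 47.1, 54.6 and 51.0 CPM in silenced plants and 54.1, 55.8 and 57.4 CPM in wild type plants. The genotypes overlapped in both tissues. The bud log2 fold change of -0.03 had a 95% interval of -0.11 to 0.04 (adjusted p = 0.416, edgeR), and the stem fall was 1.09-fold (-0.13 ± 0.05 SE, adjusted p = 0.0237, edgeR). That stem call was lost without silenced stem replicate 1 (-0.07, adjusted p = 0.259, edgeR) and without wild type stem replicate 3 (-0.11, adjusted p = 0.0832, edgeR). It was -0.21 without silenced bud replicate 1 and without silenced bud replicate 3, and in both cases the median stem change of all genes moved by -0.05 as well.

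Bra029347 had 101, 95.4 and 98.8 CPM in silenced buds, against 94.3, 104 and 98.8 CPM in wild type buds. Stem levels were 59.1, 63.2 and 59.6 CPM in silenced plants, against 76.0, 84.5 and 85.0 CPM in wild type plants. The genotypes were intermixed in buds and separate in stems. In buds the log2 fold change was -0.01, with a 95% interval of -0.09 to 0.07 (adjusted p = 0.870, edgeR), and in silenced stems the copy fell 1.35-fold (-0.43 ± 0.05 SE, adjusted p = 4.75e-15, edgeR).

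Bra035952 had 44.9, 45.9 and 46.3 CPM in silenced buds and 62.9, 65.7 and 64.9 CPM in wild type buds. It stood at 106, 113 and 110.3 CPM in silenced stems, against 87.5, 86.7 and 94.9 CPM in wild type stems. No group overlapped another, and silenced stems were highest and silenced buds lowest. The copy fell 1.41-fold in silenced buds (log2 fold change -0.50 ± 0.05 SE, adjusted p = 5.28e-19, edgeR) and rose 1.23-fold in silenced stems (0.29 ± 0.04, adjusted p = 7.15e-10, edgeR).

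The summed FUL level moved little on the FPKM scale. It was 408 ± 6.59 FPKM in silenced buds and 422 ± 13.4 FPKM in wild type buds (SD, n = 3), and 264 ± 11.4 FPKM in silenced stems and 274 ± 12.3 FPKM in wild type stems. The genotypes overlapped in both tissues on this scale. On TMM library sizes, in CPM per kilobase, the FUL sum ran between 342 and 353 in silenced buds and between 362 and 385 in wild type buds, without overlap, while the stem groups still overlapped. Bra035952 made up 49.6% ± 0.590 of the FUL level in silenced stems, against 39.4% ± 1.11 in wild type stems, and 18.2% ± 0.259 in silenced buds, against 23.7% ± 0.267 in wild type buds. The share of Bra029347 was 27.5% ± 0.412 in silenced stems, against 36.1% ± 1.15 in wild type stems.

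Counted over the families, 6 of the 8 copies passed the test in buds, 4 higher (both FT copies, Bra004928 and Bra039324) and 2 lower (Bra000393 and Bra035952). The background was 79.8% of all tested genes, with 38.5% higher and 41.3% lower in silenced buds. In stems 7 of the 8 passed, 2 higher (Bra022475 and Bra035952) and 5 lower (Bra004117, Bra004928, Bra000393, Bra012997 and Bra029347), beside 69.7% of all tested genes, 37.6% higher and 32.1% lower. The counts over both directions are near the background, so a call as such says little about these genes. The median log2 fold change of the 8 copies was 0.34 in buds and -0.28 in stems, against -0.03 and 0.05 over all tested genes. Changes of at least 2-fold were called for 3 copies in buds (Bra022475, Bra004117 and Bra039324), where 37.2% of all genes reached that size, and for 3 in stems (Bra022475, Bra004117 and Bra000393), where 28.8% did. The rise of Bra039324 in buds exceeded in size the changes of 81.3% of all tested genes, that of Bra022475 77.2% and that of Bra004117 70.3%. The stem fall of Bra004117 exceeded 76.5%, while the bud values of Bra012997 and Bra029347 exceeded only 2.76% and 0.907%.

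**Figure D3:**
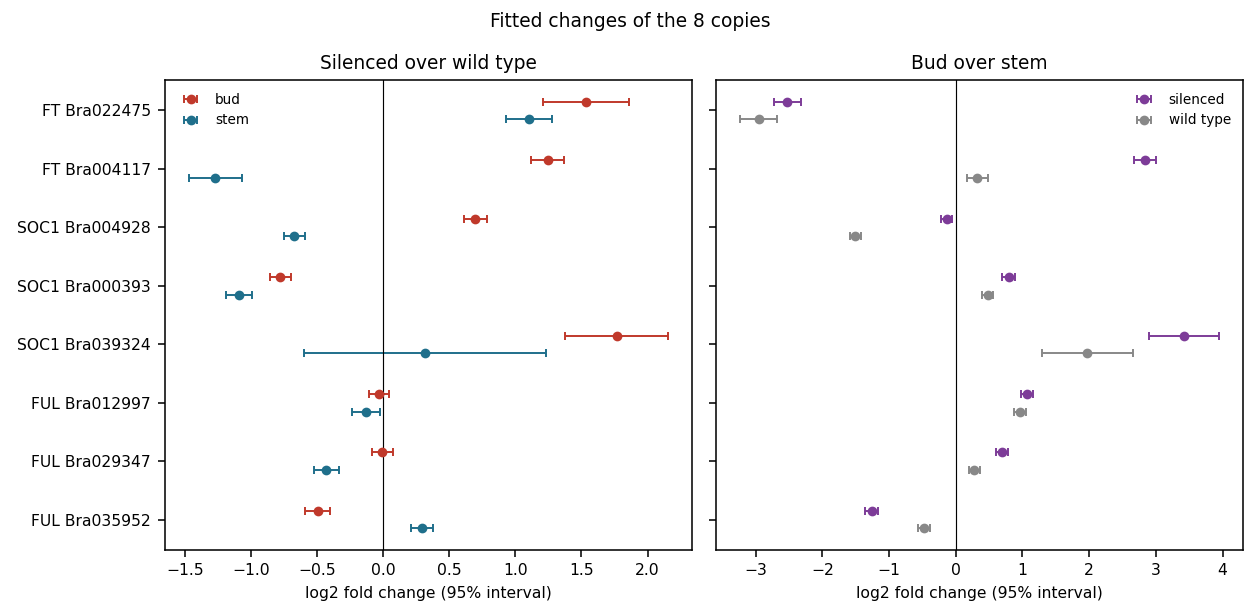
Fitted log2 fold changes of the 8 copies (x axis; points, with 95% intervals as bars) for silenced over wild type in bud and stem (left) and for bud over stem in silenced and wild type plants (right). Bra004117, Bra004928 and Bra035952 lie on opposite sides of 0 in bud and stem on the left, with bud values of 1.24, 0.70 and -0.50 against stem values of -1.27, -0.68 and 0.29.

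The silencing effects of bud and stem were then set against each other in an interaction test, and the bud and stem effects share no library. The effects differed for 7 of the 8 copies, where 74.4% of all tested genes were called. The bud effect was called more positive for 6 of the 8 copies, beside 35.5% of all tested genes, and more negative for Bra035952 alone, beside 38.8%. Bra004117 differed most, by 2.52 ± 0.12 SE on the log2 scale (adjusted p = 1.72e-46, edgeR), and Bra004928 differed by 1.37 ± 0.06 (adjusted p = 1.09e-50, edgeR). Bra039324 is counted among the 7 with a value of 1.45 ± 0.52 (adjusted p = 0.00918, edgeR), but it passed the read filter through its bud libraries, and its stem level rests on 4 to 13 reads per library. Without wild type stem replicate 2, which held 13 reads, the value was 0.87 with an adjusted p = 0.234 (edgeR). Bra035952 had the only negative value, -0.79 ± 0.06 (adjusted p = 7.04e-24, edgeR).

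For the copies that moved the same way in both tissues the difference was smaller. It was 0.43 ± 0.19 SE for Bra022475 (adjusted p = 0.0382, edgeR) and 0.31 ± 0.06 for Bra000393 (adjusted p = 6.78e-06, edgeR). The call of Bra022475 was lost without any of 5 libraries: wild type bud replicate 1 (0.32, adjusted p = 0.164, edgeR), wild type bud replicate 3 (0.34, 0.151), silenced bud replicate 2 (0.42, 0.0591), silenced stem replicate 1 (0.40, 0.0664) and wild type stem replicate 1 (0.39, 0.0747). Without wild type bud replicate 2 the difference was 0.65 (adjusted p = 0.00738, edgeR). Bra029347, which fell in stem and did not pass the test in bud, differed by 0.42 ± 0.06 (adjusted p = 7.33e-10, edgeR). Bra012997 differed by 0.10 with a 95% interval of -0.04 to 0.23 (adjusted p = 0.188, edgeR), although it passed without silenced bud replicate 1 (0.24, adjusted p = 0.00105, edgeR) and without silenced bud replicate 3 (0.18, adjusted p = 0.0152, edgeR), where the median of all genes moved by 0.11 and 0.10. Called in both tissues with opposite signs were 3 copies, 1 from each family (Bra004117, Bra004928 and Bra035952), and 37.4% of all tested genes. Those called with the same sign in both were 2 copies (Bra022475 and Bra000393) and 19.6% of all tested genes.

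**Figure D4:**
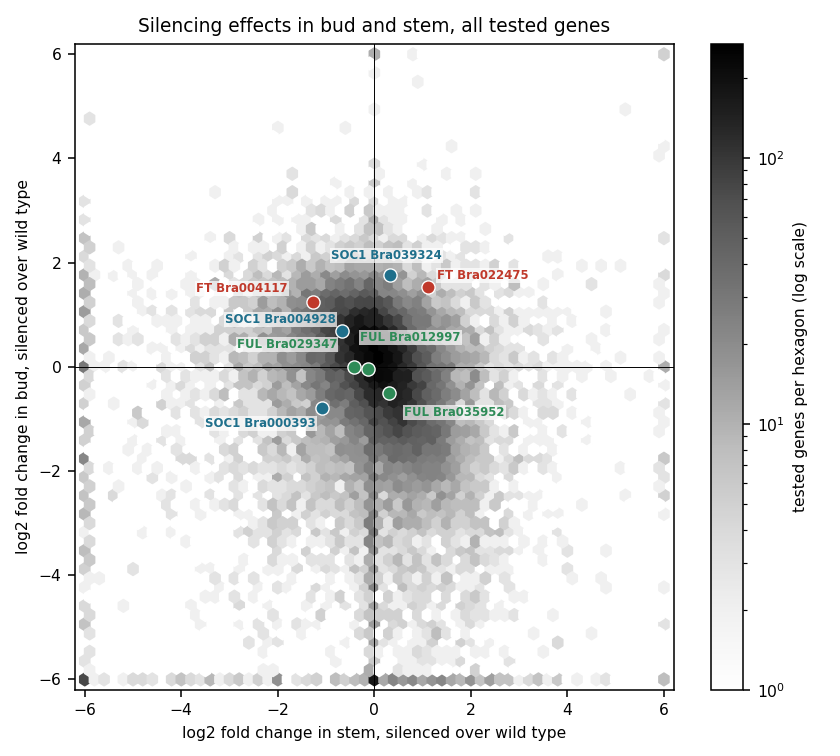
Log2 fold change, silenced over wild type, in bud (y axis) against stem (x axis); grey hexagons show the number of tested genes on a log scale, values beyond 6 in size are drawn at the edge, and coloured points are the 8 copies. FT Bra022475 lies upper right (1.53 in bud, 1.102 in stem), FT Bra004117 upper left (1.24 and -1.27) and SOC1 Bra000393 lower left (-0.78 and -1.09).

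Buds and stems of the same genotype were compared last. These comparisons share their libraries with the silencing effects and are not independent of them. The test called all 8 copies between tissues in silenced plants, 5 higher and 3 lower in bud, beside 85.1% of all tested genes (43.6% higher and 41.5% lower). In wild type plants the same 8 passed, again 5 higher and 3 lower, beside 86.3% of all tested genes (45.6% higher and 40.6% lower). Bra039324 is in these counts, but it entered the test through its bud reads, which favoured a higher bud level beforehand, and its tissue difference is given as a description. Tissue values depend on the scaling: library totals alone, without TMM, moved the median of all genes up in bud by 0.45 on the log2 scale in silenced plants and by 0.37 in wild type plants.

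Bra022475 was 5.76-fold lower in bud than in stem in silenced plants (log2 fold change -2.53 ± 0.10 SE, adjusted p = 2.21e-55, edgeR) and 7.77-fold lower in wild type plants (-2.96 ± 0.14, adjusted p = 9.98e-46, edgeR). Bra004117 was 7.17-fold higher in bud in silenced plants (2.84 ± 0.08, adjusted p = 3.8e-73, edgeR), against 1.25-fold in wild type plants (0.32 ± 0.08, adjusted p = 6.75e-05, edgeR). The wild type value of Bra004117, 0.32 with TMM, was 0.69 with library totals alone, so its size depends on the scaling.

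Of the SOC1 copies, Bra039324 averaged 7.98 CPM in silenced buds against 0.730 CPM in silenced stems, and 2.28 CPM in wild type buds against 0.582 CPM in wild type stems. Bra000393 was higher in bud by 0.79 ± 0.05 SE on the log2 scale in silenced plants and by 0.48 ± 0.04 in wild type plants, and by 1.24 and 0.85 with library totals alone. Bra004928 was 2.84-fold lower in bud in wild type plants (-1.50 ± 0.04, adjusted p = 2.97e-75, edgeR). In silenced plants its value was -0.13 ± 0.04 (adjusted p = 0.0024, edgeR), which turned to 0.32 with library totals alone, so its direction there depends on the scaling. The call was also lost without silenced bud replicate 3 (-0.08, adjusted p = 0.0867, edgeR).

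Among the FUL copies, Bra012997 was 2.09-fold higher in bud in silenced plants and 1.96-fold higher in wild type plants, with log2 fold changes of 1.06 ± 0.05 SE and 0.97 ± 0.05. Across the alternatives run, its value ranged between 1.01 and 1.51 in silenced plants and between 0.88 and 1.33 in wild type plants. Bra029347 was higher in bud by 0.70 ± 0.05 in silenced plants and by 0.28 ± 0.04 in wild type plants, and by 1.15 and 0.64 with library totals alone. Bra035952 was the FUL copy that was lower in bud, 2.40-fold in silenced plants (-1.26 ± 0.05) and 1.39-fold in wild type plants (-0.47 ± 0.04). With library totals alone Bra035952 was at -0.81 in silenced plants and -0.11 in wild type plants, and under TMM the largest adjusted p among the 6 FUL values was 2.78e-09 (edgeR).

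Set against all genes with reads, the FUL copies and the 2 main SOC1 copies were abundant in every group. Their mean FPKM lay between the 90.0th and 97.6th percentile of genes, where the highest value belonged to Bra004928 in wild type stems and the lowest to Bra000393 in silenced stems. The FT copies ranged more widely. Bra004117 lay at the 96.2nd percentile in silenced buds, the 88.8th in wild type buds, the 70.5th in silenced stems and the 84.3rd in wild type stems. Bra022475 lay at the 65.1st percentile in silenced buds, the 45.4th in wild type buds, the 90.0th in silenced stems and the 81.2nd in wild type stems.

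Patterns over the 12 libraries were compared as the root mean square difference of mean-centred log2 CPM. It is small where the centred levels of a pair of genes lie close in each library, so the size of changes counts as well as their direction. A small value therefore need not mean that genes go up and down together. Bra029347 lay nearer to Bra004928 (0.70, correlation -0.40) than to Bra004117 (0.77, correlation 0.87). Copies of a family were seldom alike by this measure. For Bra004117 the other FT copy ranked 25084th of 28113 tested genes, with a difference of 2.31 (log2), and 6 of the other members were nearer. The most similar pair of members was Bra012997 and Bra029347, with a difference of 0.29, followed by Bra000393 and Bra029347 with 0.38. The third FUL copy stood apart, at 0.97 from Bra012997 and 0.75 from Bra029347. These values describe 12 libraries that share 4 groups and carry no test.

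For the copy of each family with the highest mean FPKM over the 12 libraries, the tested gene with the closest pattern was found by the same measure. For SOC1 that mean was nearly tied, at 140.4 FPKM for Bra004928 and 139 FPKM for Bra000393. The FUL copy so chosen, Bra029347 at 121 FPKM, led in no single group, since Bra012997 was higher in buds and Bra035952 in stems. Bra002840 was closest to the FT copy Bra004117, with a difference of 0.10. It stood at 98.3 ± 3.26 CPM in silenced buds, 36.7 ± 1.34 CPM in wild type buds, 13.9 ± 0.570 CPM in silenced stems and 34.7 ± 0.734 CPM in wild type stems (SD, n = 3). Bra014559 was closest to the SOC1 copy Bra004928, with a difference of 0.06, and Bra016240 to the FUL copy Bra029347, with 0.08. None of these 3 identifiers is paired with a name in the sources used here.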

How the data were processed

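Per the labels' protocols, Trizol was used to isolate total RNA of stems and buds, and libraries followed standard Illumina steps. The deposited count table holds the authors' whole-number read counts per gene, not normalized, and the deposited FPKM table holds counts divided by library total and coding length. This length was a whole number (relative tolerance 1e-06) for each of the 35651 genes with reads. Tools named in the submitters' processing notes, with no roles, are featureCounts 2.0.1, HISAT2 2.1.0, TopHat2 and Bowtie 1.0.1. Genome build and strandedness are not given in the sources used.

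Counts of all 12 libraries were fitted together in edgeR 4.0.16 (R 4.3.3), with filterByExpr (minimum count 10), TMM scaling, 1 term per group and the quasi-likelihood test, two-sided. A gene was called at a p under 0.05 after Benjamini-Hochberg adjustment over 28114 genes. Standard errors are the log2 fold change divided by the square root of the F statistic. The scripts were tested on simulated counts. Shares and sums use the deposited FPKM. Alternatives used limma 3.58.1, DESeq2 1.42.0, other scalings and filters, a replicate block and leaving out each library.

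The members and lists were chosen with earlier results of these data known. All 8 members are named, and for the copy of each family with the highest mean FPKM the gene of closest pattern, using log2 CPM (prior count 2). Lists of 40 other flowering genes and 25 tissue markers were looked up by symbol in the RefSeq gene table (CAAS_Brap_v3.01). That table paired 1 of the 41020 identifiers, and none of either list, so those genes, the tissue markers and any sequences are not analysed here.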

Additional observations from a re-analysis of the deposited data

Results flagged for a closer look

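For 7 of the 8 copies the effect of silencing differed between bud and stem by edgeR's interaction test, where 74.4% of all tested genes were called. The differences, bud effect minus stem effect on the log2 scale, were 2.52 for Bra004117, 1.45 for Bra039324, 1.37 for Bra004928, 0.43 for Bra022475, 0.42 for Bra029347, 0.31 for Bra000393 and -0.79 for Bra035952. The adjusted p-values of edgeR ranged between 1.09e-50 for Bra004928 and 0.0382 for Bra022475. Bra039324 passed the read filter through its bud libraries, and its stem level rests on 4 to 13 reads per library. The call of Bra039324 was lost without wild type stem replicate 2 (0.87, adjusted p = 0.234, edgeR). That of Bra022475 was lost when any of the single libraries named for it above was left out. Groups of 3 libraries are too small to flag single libraries as outliers.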

How the results depend on the processing

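The numbers of copies called stayed within 1.5 times in all 5 comparisons under every alternative run. With only 8 copies this limit is wide, and a count does not show which copies were called or whether a direction turned. With the replicate number as a block, 7 copies were called in stem, 6 in bud, 7 in the interaction and 8 in each tissue comparison, as without it. No call changed and no log2 fold change moved by more than 0.0230. By the labels the numbers are only names. Deviations of same-numbered libraries correlated at -0.0159 to 0.0283 over 18 pairs, and those of differently numbered libraries at -0.0328 to 0.0154 over 36 pairs. The same number correlated best in 18 of 36 combinations of a library and another group, where each choice was among 3 libraries. Of the 12 libraries, 1 correlated best with its own number in every other group. Whether the numbers pair plants was not tested further.

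Some directions turned, all but those of Bra004928 for values that did not pass the test. Bra004928 in silenced bud against silenced stem (-0.13 with TMM) was 0.32 with library totals alone, 0.32 with limma on log2(FPKM + 0.1) and 0.32 on log2(FPKM + 1) with or without the low-value filter; upper-quartile scaling gave -0.02 (adjusted p = 0.636, edgeR). The cause was not tested beyond the shift of all genes between scalings. In silenced against wild type bud, Bra012997 was 0.0345 with library totals alone, 0.0352 with limma on log2(FPKM + 0.1) and 0.0350 on log2(FPKM + 1), with or without the filter; leaving out single libraries gave -0.0592 to 0.0252. There Bra029347 was 0.0616 with library totals alone, 0.0650 with limma on log2(FPKM + 0.1), 0.0646 on log2(FPKM + 1), with or without the filter, and 0.00388 without the low-count filter in edgeR; leaving out single libraries gave -0.0382 to 0.0230. The interaction of Bra012997 passed with library totals alone and with all 3 limma settings (0.18 each).

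On TMM library sizes the summed levels, in CPM per kilobase of coding length, were for FT 129 in silenced buds, 53.7 in wild type buds, 84.6 in silenced stems and 71.4 in wild type stems. SOC1 had 260.2 in silenced buds, 287 in wild type buds, 211 in silenced stems and 373 in wild type stems. FUL had 346 in silenced buds, 376 in wild type buds, 305 in silenced stems and 314 in wild type stems. The shares within a family do not depend on scaling. The FUL sums of the genotypes overlapped in bud on the FPKM scale and not on TMM library sizes. Depth limits Bra039324 most, with 4 to 13 reads per stem library and 21 to 48 in wild type buds, and also Bra022475 in wild type buds, with 24 to 46.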
